A study of Mus musculus with 12 samples.

Results

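H3K79me2 peaks that were listed in Kmt2d wild-type (WT) melanoma cells of the mouse and had no counterpart in Kmt2d mutant cells are described here. They were the autosomal WT H3K79me2 peaks shorter than 10000 bp that no mutant H3K79me2 peak overlapped by 1 bp or more. There were 9488 of them, out of 23830 autosomal WT H3K79me2 peaks under that length, 25869 autosomal WT H3K79me2 peaks of any length and 173601 peaks in the 10 lists of the series. The share without a mutant peak was thus 39.8% under the length limit and 36.7% over all autosomal WT H3K79me2 peaks. The peaks were chosen by measured values, namely their length and their lack of overlap with the mutant H3K79me2 list, so their H3K79me2 values are a description and carry no test. The other 14342 short WT peaks, which a mutant H3K79me2 peak did overlap, are called shared peaks.

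The cells were isolated from ear tumours of iBIP mice on a mixed FVB and B6 background. WT and mutant cells alike carried Tyr-CreERT2, a tamoxifen-activated Cre under a promoter of the melanocyte lineage, with Rosa26-rtta, a doxycycline-driven TetO-BRAFV600E, PTENL/L and INK/ARFL/L. WT cells came from KMT2D+/+ mice and mutant cells from KMT2DL/L mice. Doxycycline and 1 uM 4-OHT on the ears started the tumours in both. The labels do not say how many animals or cultures stood behind a library. Each genotype had 1 library of H3K79me2, H3K4me3, H3K27ac, H3K4me1 and H3K27me3, so there was no replicate check, no test between genotypes was possible, and no p-value is given. The peak lists name no genes, so the melanocyte identity of the cells and the deletion of Kmt2d were not checked here.

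H3K79me2 is placed by DOT1L, which acts alongside transcribing RNA polymerase II. The mark is highest just behind the promoter of a transcribed gene and thins out along the gene body. H3K4me3 marks promoters, H3K27ac marks active promoters and enhancers, and H3K27me3 marks regions held silent by Polycomb. KMT2D is one of the enzymes that lay down H3K4me1, the mark of enhancers.

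WT-only peaks were short. Their median length was 666.5 bp, with the middle of the range between 383 and 1101 bp, against 2219.5 bp for shared peaks. Below 1000 bp lay 70.8% of the WT-only peaks and 22.4% of the shared ones. At least 5000 bp was reached by 45 WT-only peaks, 0.474% of them, and by 18.9% of the shared peaks. All WT-only peaks together covered 8.50 Mb, which is 9.41% of the 90.3 Mb of autosomal WT H3K79me2, although they made up 36.7% of its peaks.

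They were also weakly enriched. The deposited fold enrichment over input had a median of 3.95 in WT-only peaks and 4.33 in shared peaks, and the median −log10 q was 4.45 and 5.61. A fold of at least 5 was found at 138 WT-only peaks (1.45%) and at 16.8% of shared peaks. The highest fold of a WT-only peak was 6.25, and that of a shared peak 9.62. The plot of length and fold shows that the sets overlapped in both.

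**Figure D1:**
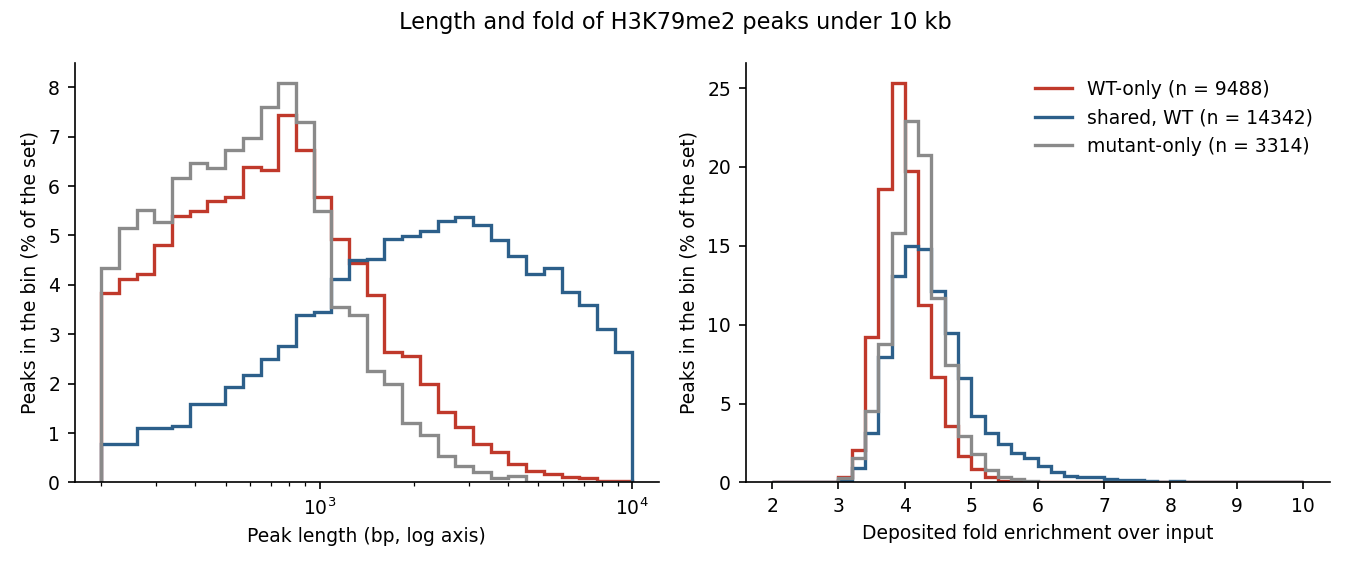
Lengths (left, log axis, bp) and deposited fold enrichment over input (right) of H3K79me2 peaks under 10 kb, as the percentage of each set per bin, for 9488 WT-only peaks, 14342 shared WT peaks and 3314 mutant-only peaks. WT-only peaks and mutant-only peaks sit to the left of shared peaks in length, with medians of 666.5 and 569 bp against 2219.5 bp.

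Short length and low fold went with the lack of a mutant peak in a graded way. Of the WT peaks of 200 to under 500 bp, 73.7% had no mutant peak. This share was 62.3% from 500 bp, 37.5% from 1000 bp, 17.2% from 2000 bp, 7.17% from 3000 bp and 1.63% from 5000 bp up to the limit. By fold it was 20.1% from 4.5 to under 5, 6.60% from 5 to under 6 and 0.781% (4 of 512 peaks) at 6 or more. The shorter or weaker a WT peak, the more often the mutant list had none. A longer peak offers more bases for the 1 bp overlap, so the length trend is not independent of the rule. Read depth cannot be read from peak lists and was not tested. When the WT list was limited to peaks with a −log10 q of at least 5, set after the values were seen, 21.0% of the short WT peaks had no mutant peak in place of 39.8%. With that limit in both H3K79me2 lists the share was 44.3% and the median length of the WT-only peaks 1246 bp.

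The reverse set held short peaks as well. Of the 20067 autosomal mutant H3K79me2 peaks under 10000 bp, 3314 had no WT peak (16.5%, and 15.2% of mutant H3K79me2 peaks of any length). Their median length was 569 bp. Their median fold was 4.17, between the 3.95 of WT-only peaks and the 4.33 of shared WT peaks. The fold of mutant peaks shared with WT was not computed. They covered 2.30 Mb, or 3.09% of the autosomal mutant H3K79me2, and the longest was 4558 bp.

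At the length limit, the longest WT-only peaks under 10000 bp were 9539, 9223 and 9072 bp long, with folds of 4.15, 4.27 and 4.80. Just over the limit were WT peaks without mutant overlap of 10184, 11095 and 11119 bp, with folds of 4.46, 4.32 and 4.49. There were 6 such long peaks in all. At the overlap limit, 202 WT-only peaks had a mutant peak within 100 bp, the nearest at 1 bp. On the other side of it, 346 shared peaks were overlapped by at most 100 bp, the least by 1 bp. The median shared peak was covered over 75.5% of its length.

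Most WT-only peaks lay near H3K79me2 that the mutant did have. The median distance to the nearest mutant H3K79me2 peak was 3703 bp, with the middle of the range from 1361 to 14251 bp. A mutant H3K79me2 peak lay within 1000 bp of 17.4% of them, within 10000 bp of 69.7% (95% interval 68.8 to 70.6) and within 100000 bp of 93.5%. On both sides within 10000 bp, mutant H3K79me2 was present at 26.4%, on 1 side at 43.3%, and on neither at 30.3% (2873 peaks). Mutant-only peaks were closer to H3K79me2 of the other genotype, with a median of 1566.5 bp and 85.3% (84.1 to 86.5) within 10000 bp; the WT list they were measured against was also the longer one. The median distance of WT-only peaks was 1603 bp when a mutant peak had to cover at least 50% of a WT peak to count as shared, and 9635 bp when peaks under a −log10 q of 5 were left out of both lists.

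**Figure D2:**
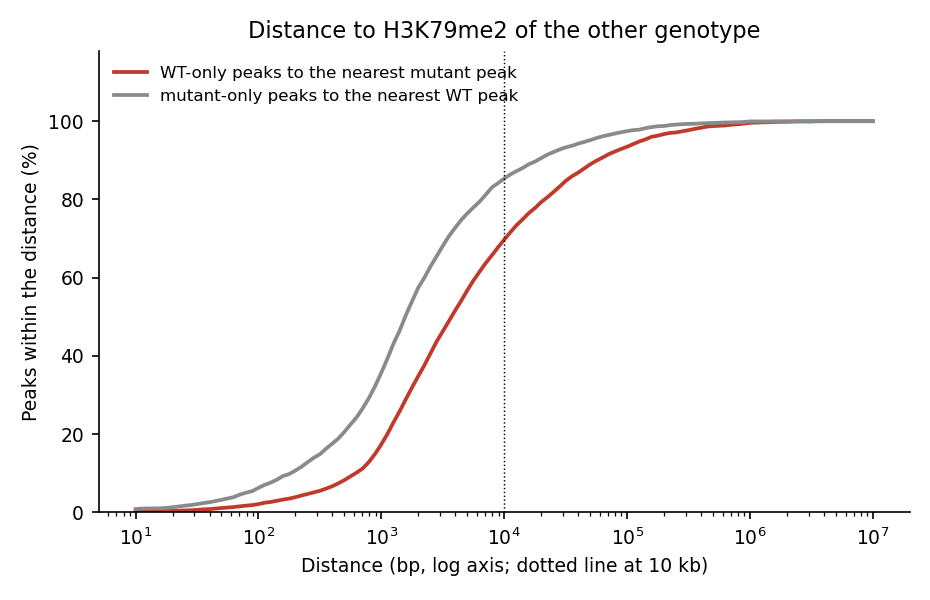
Cumulative percentage (y axis) of WT-only H3K79me2 peaks within a given distance (x axis, bp, log scale) of the nearest mutant H3K79me2 peak, and of mutant-only peaks from the nearest WT peak. At the dotted line, 10 kb, the WT-only curve stands at 69.7% and the mutant-only curve at 85.3%.

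Neither WT-only nor shared peaks were often alone in the WT list. The 10000 bp on either side held no WT H3K79me2 at 13.7% of WT-only peaks and 14.1% of shared peaks. Another WT H3K79me2 peak lay within 10000 bp of 86.3% of the WT-only peaks. The median distance to the nearest one was 1840 bp, and none was closer than 801 bp. That nearest WT neighbour was itself shared with the mutant in 49.4% of cases. Over all autosomal WT H3K79me2 peaks, 36.7% had no mutant peak and the rest were shared. The same value for neighbours of shared peaks was not computed. A WT H3K79me2 peak of 10000 bp or more lay within 10000 bp of 9.87%. In the 10000 bp on either side of a WT-only peak, the mean cover was 4162 bp of WT and 2488 bp of mutant H3K79me2. Around shared peaks the corresponding means were 5382 and 4962 bp. The gap between WT and mutant cover was thus wider beside WT-only peaks, whose flanks also hold other WT-only peaks and so are not independent of the choice.

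WT-only peaks were grouped into runs, meaning chains of consecutive ones with gaps of at most 10000 bp and no mutant H3K79me2 peak in between. A WT-only peak without such a neighbour was a run of 1. The 9488 peaks fell into 6455 runs, of which 4747 held 1 WT-only peak and 625 held 3 or more. Those 625 runs accounted for 2575 WT-only peaks, 27.1% of them. The 138 runs of 5 or more held 953 peaks, with a median span of 21507 bp, of which WT H3K79me2 covered 31.2% overall.

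The run with the most members held 21 WT-only peaks on chromosome 7 from 38447414 to 38546291 (98878 bp, mouse build mm9). Its peaks were 229 to 4679 bp long, with folds of 3.59 to 4.65, and covered 36.4% of the span. No other mark had a peak within the run in either genotype. The nearest WT H3K4me3 peak began 6021 bp past its end, from 38552313 to 38559004. The mutant kept H3K4me3 over 5768 bp of that promoter-like peak, and H3K27me3 lay there over 6046 bp (WT) and 6414 bp (mutant). WT H3K27ac covered 3212 bp of it and mutant H3K27ac none, while WT H3K79me2 covered 3771 bp and mutant H3K79me2 1949 bp. The mutant list thus had H3K79me2 at the H3K4me3 peak and none over the chain of patches beside it.

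**Figure D3:**
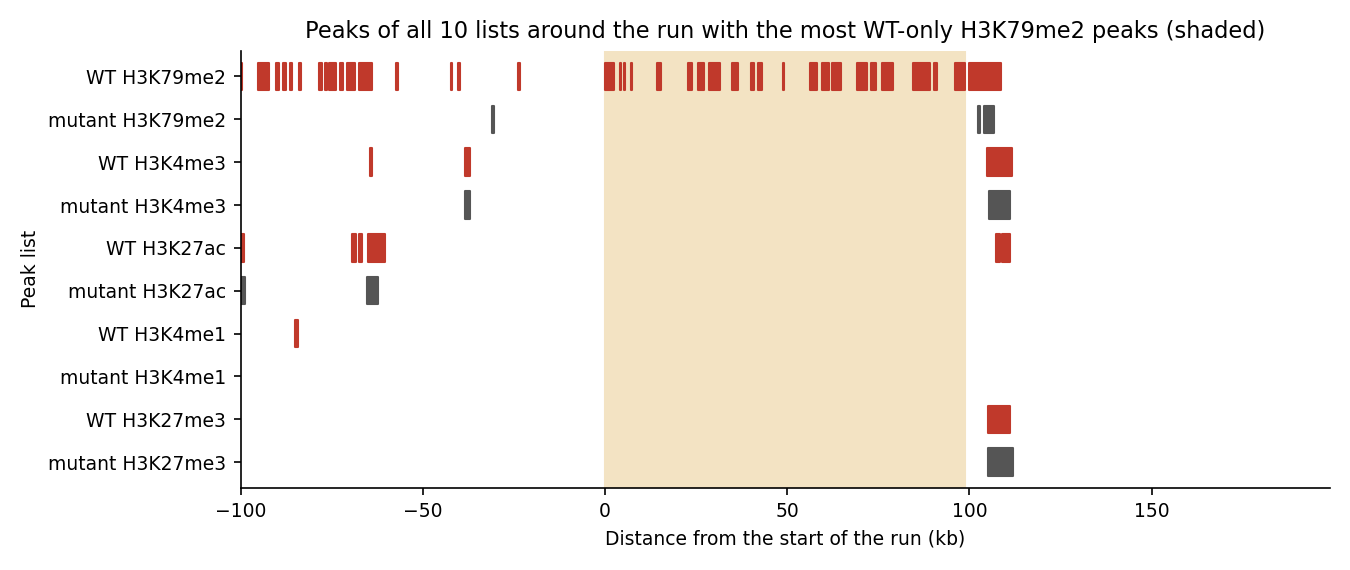
Peaks of the 10 lists (rows) around the chromosome 7 run with 21 WT-only H3K79me2 peaks (shaded), by distance from its start in kb; red bars are WT peaks and grey bars mutant peaks. Only the WT H3K79me2 row has peaks within the shaded 98878 bp, and H3K4me3 and H3K27me3 of both genotypes lie just past its end, where H3K27ac is in the WT row alone.

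The next runs by number of members differed in what lay beside them. On chromosome 18 from 63457178 to 63541487, 17 peaks of 269 to 6928 bp had no other mark. Here the nearest WT H3K4me3 peak, 1990 bp away and 1099 bp long, had no mutant H3K4me3, and WT H3K79me2 covered all 1099 bp of it and mutant H3K79me2 934 bp. On chromosome 2 from 63817608 to 63877284, 17 peaks of 200 to 3087 bp lay 55381 bp from the nearest WT H3K4me3 peak. That H3K4me3 peak kept H3K4me3 (3583 bp), H3K27ac (2434 bp against 2789 bp in WT) and H3K79me2 (2672 bp against 2617 bp) in the mutant. In the 50 kb beside the run on that side, WT H3K79me2 covered 43028 bp and mutant H3K79me2 8352 bp.

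On chromosome 9 from 49525931 to 49570480, 16 WT-only peaks covered 51.7% of the span, within which the only other mark was 721 bp of WT H3K4me1. The nearest WT H3K4me3 peak lay 34008 bp away. It kept H3K4me3 in the mutant (2636 of 2690 bp), had H3K27ac over 1659 bp in WT and none in the mutant, and H3K79me2 over 397 bp in WT and none in the mutant. A mutant H3K27me3 peak covered 681 bp of it, where WT had none. On chromosome 18 from 16869238 to 16933104, 16 WT-only peaks covered 18.7% of the span, 31816 bp from a WT H3K4me3 peak that kept H3K4me3 (3673 of 3709 bp). H3K27ac covered 1578 bp and H3K27me3 949 bp of that peak in WT, with none of either in the mutant, and H3K79me2 covered 1944 and 908 bp in the respective lists. At 3 of the 5 runs, then, the nearest H3K4me3 peak had H3K27ac in the WT list and not in the mutant list.

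This was followed over all runs, a comparison chosen after these 5 were seen. For each run, the nearest WT H3K4me3 peak within 50 kb was taken. Where such a peak carried H3K27ac in WT, the mutant list lacked H3K27ac at 12.4% of 2886 H3K4me3 peaks next to runs of 1. The share was 15.9% of 681 next to runs of 2, 21.4% of 290 next to runs of 3 to 4, and 27.5% of 80 next to runs of 5 or more (95% interval of the share kept, 61.4 to 81.9). Over all autosomal WT H3K4me3 peaks with WT H3K27ac it was 12.3% of 10953. H3K4me3 itself was missing in the mutant at 6.09%, 8.59%, 11.7% and 14.4% of the H3K4me3 peaks next to runs of these sizes, against 11.4% over all autosomal WT H3K4me3 peaks. Where these H3K4me3 peaks carried WT H3K79me2, mutant H3K79me2 lay on 70.1%, 62.2%, 59.0% and 48.1% of them in order of run size, against 85.1% over all, a contrast that the rule itself used.

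Median H3K4me3 scores in the 4 groups of run sizes were 1282, 1205, 1098 and 1183, against 950.3 over all. At like H3K4me3 score, averaged over 5 equal groups by score, 77.6% of the 357 acetylated H3K4me3 peaks nearest to runs of 3 or more kept H3K27ac, against 88.8% of the others. That difference was -11.2 percentage points (approximate 95% interval -15.4 to -7.07). The same H3K4me3 peak can stand next to runs of several sizes, and neighbouring runs are not independent. Of the 5 runs that prompted the comparison, 3 contribute to these values, namely those whose H3K4me3 peak had H3K27ac in the WT list alone. The chromosome 2 run lay 55381 bp from H3K4me3, beyond the 50 kb limit. The H3K4me3 peak beside the chromosome 18 run from 63457178 had no WT H3K27ac. With all 5 runs left out the difference was -10.5 points (-14.6 to -6.39). Next to the remaining runs of 5 or more, 24.7% of 77 acetylated H3K4me3 peaks had no mutant H3K27ac.

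Of all 9488 WT-only peaks, 11.4% (10.8 to 12.1; 1085 peaks) sat on a WT H3K4me3 peak, 28.8% lay within 10000 bp of one without touching it, and 59.8% had none within 10000 bp. The median distance to WT H3K4me3 was 15647 bp, against 4569 bp for shared peaks. Of the 1057 WT H3K4me3 peaks under WT-only peaks, taking 1 for each WT-only peak, 25.4% (22.8 to 28.2) had mutant H3K79me2 on them or within 1000 bp. Of the 2125 that were the nearest to a WT-only peak within 10000 bp without touching it, 64.8% (62.7 to 66.8) had it, against 56.4% of all autosomal WT H3K4me3 peaks. Limited to the 1506 of these 2125 that carried WT H3K79me2, the share was 83.4% (81.4 to 85.2), against 89.7% over all autosomal WT H3K4me3 peaks with WT H3K79me2. Mutant H3K79me2 was thus scarce at H3K4me3 peaks under WT-only peaks, where the rule itself bars an overlap with the WT-only peak, and more common at those nearby.

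Most WT-only peaks carried none of the 4 other marks. In either genotype 77.7% (7376 peaks) had no other mark, against 48.1% of shared peaks. At least 1 other mark was present in WT at 20.3% (19.5 to 21.1) and in the mutant at 18.2% (17.5 to 19.02), against 42.3% and 39.8% over all autosomal WT H3K79me2 peaks. With peaks under a −log10 q of 5 left out of both H3K79me2 lists, the first share was 33.3% and the second 30.4%.

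By mark, H3K4me3 was on 11.4% of WT-only peaks in WT and 11.6% in the mutant, against 31.4% and 31.6% over all autosomal WT H3K79me2 peaks. H3K27ac was on 14.4% in WT and 13.2% in the mutant, against 35.7% and 34.0% over all. H3K4me1 was on 7.33% in WT and 1.38% in the mutant, against 19.2% and 8.52% over all. The active marks were thus less common on WT-only peaks, which were also shorter. H3K27me3 was on 2.04% in WT and 2.09% in the mutant, near the 1.95% and 2.06% over all.

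**Figure D4:**
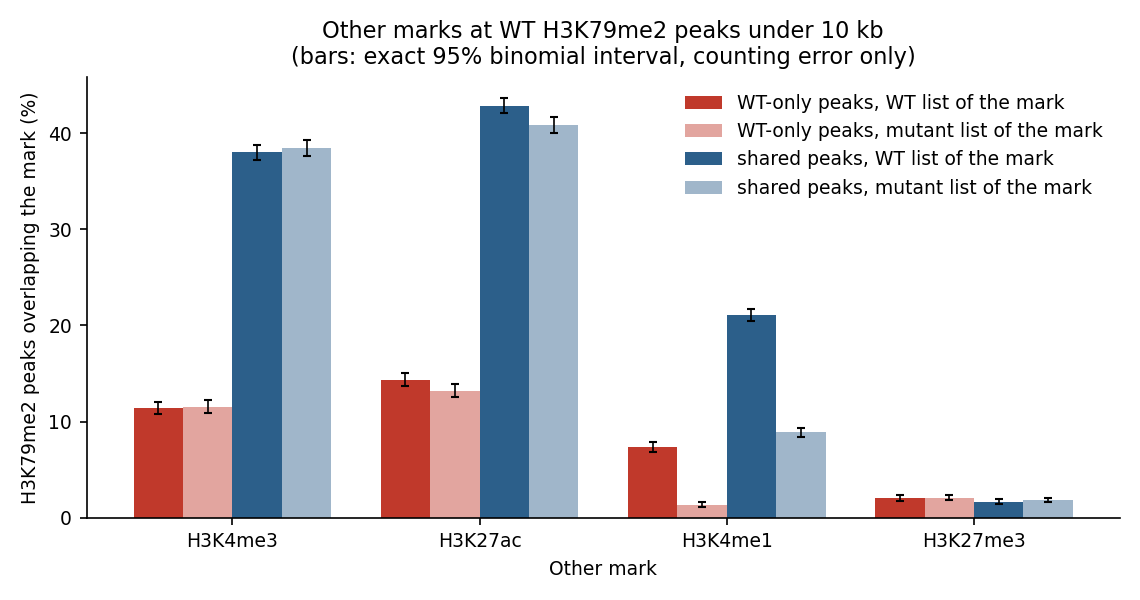
Percentage of short WT H3K79me2 peaks (y axis) that overlapped a peak of each other mark (x axis), for WT-only peaks (red) and shared peaks (blue), with the WT list of the mark in full colour and the mutant list in pale colour; error bars are exact 95% binomial intervals. H3K4me3 and H3K27ac stand at 11.4% to 14.4% on WT-only peaks and at 38.0% to 42.8% on shared peaks, and H3K4me1 has the largest step from WT to mutant.

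The difference from shared peaks was smaller at like size. When WT-only and shared peaks were compared within 5 groups by length, each split into 5 by fold, WT H3K27ac was on 14.4% of WT-only peaks and 22.9% of shared peaks. The difference was -8.52 percentage points (approximate 95% interval -9.79 to -7.25), where the unadjusted shares were 14.4% and 42.8%. It was -14.0 points with a −log10 q of at least 5 required in both H3K79me2 lists and -13.2 points with that limit in the WT list alone. For WT H3K4me3 it was -7.07 points (-8.21 to -5.92) and for WT H3K4me1 -2.67 points (-3.56 to -1.77). For WT H3K27me3 it had the other sign, at 1.01 points (0.629 to 1.39), with 2.04% of WT-only peaks against 1.04% of shared peaks of like length and fold.

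Where WT-only peaks had another mark in WT, the mutant kept these marks to very different extents. H3K4me3 was kept at 1004 of 1085 (92.5%, 90.8 to 94.03), so that 7.47% had no mutant H3K4me3, against 2.44% over all autosomal WT H3K79me2 peaks with WT H3K4me3. H3K27ac was kept at 1040 of 1364 (76.2%, 73.9 to 78.5), so that 23.8% had none in the mutant, against 11.6% over all. H3K4me1 was kept at 97 of 695 (14.0%, 11.5 to 16.8), so that 86.04% had none, against 63.9% over all. H3K27me3 was kept at 146 of 194 (75.3%, 68.6 to 81.2), so that 24.7% had none, against 25.6% over all. The first 3 shares without the mark stood above their backgrounds and the last one near it. WT-only peaks were also shorter, which leaves fewer bases for a mutant peak to overlap, and length was not matched in these shares. The mutant H3K4me1 list was much shorter than the WT one in all, with 5358 against 15974 autosomal peaks, and its part in the H3K4me1 share was not tested.

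**Figure D5:**
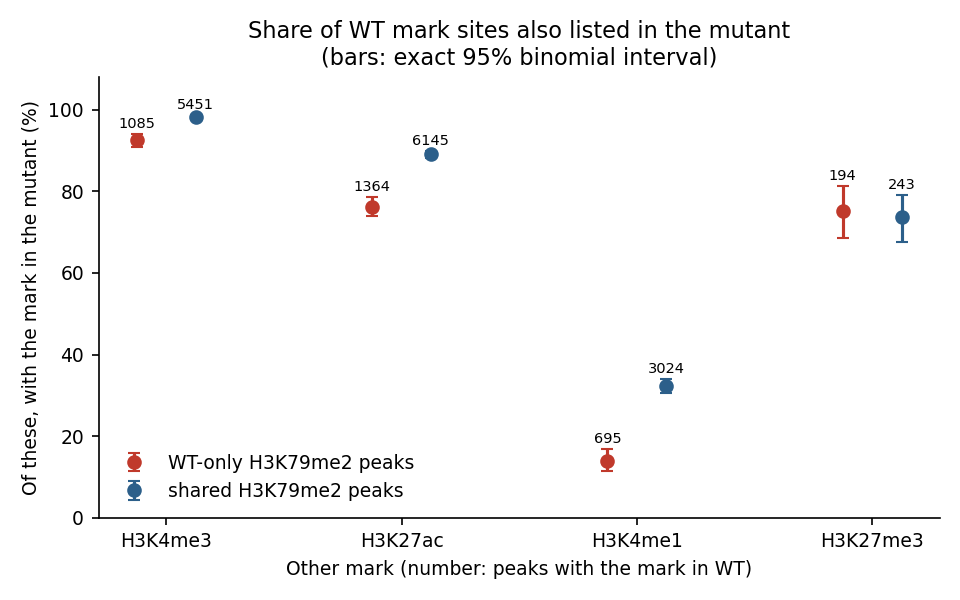
Of short WT H3K79me2 peaks with a given other mark in WT (x axis, number of peaks printed above each point), the percentage that also had that mark in the mutant (y axis), for WT-only peaks (red) and shared peaks (blue), with exact 95% binomial intervals. The WT-only points are lower for H3K4me3 (92.5% against 98.2%), H3K27ac (76.2% against 89.0%) and H3K4me1 (14.0% against 32.2%), and the intervals overlap for H3K27me3. Peak length was not matched.

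Counted per peak of the other mark, WT-only peaks stood below shared ones again for H3K4me1 and H3K27ac and not for H3K4me3. Over all autosomal WT peaks of each mark, no mutant peak of that mark was found for 77.0% of H3K4me1, 24.0% of H3K27ac, 11.4% of H3K4me3 and 35.1% of H3K27me3 peaks. Of the 650 WT H3K4me1 peaks that touched WT-only and no shared H3K79me2 peaks, 15.5% (12.8 to 18.6) had a mutant H3K4me1 peak, against 32.4% of the 6862 that touched shared H3K79me2 peaks alone, long ones included. At like H3K4me1 score that difference was -15.9 points (-18.7 to -13.1). WT H3K4me1 peaks off all WT H3K79me2 had a mutant peak in 15.9% of cases, a share like that under WT-only peaks. For H3K27ac the shares were 75.04% of 1118 and 86.4% of 9382, a difference of -6.04 points (-8.39 to -3.69) at like score, with 68.7% off H3K79me2. For H3K4me3 they were 93.8% of 920 and 94.0% of 7276, and at like score the WT-only side was higher by 4.64 points (2.97 to 6.32). For H3K27me3 they were 78.1% of 187 and 70.7% of 335, with a difference at like −log10 q of 3.04 points whose interval, -4.05 to 10.1, spans no difference. The H3K4me3 shares of these 2 counts are not directly comparable, since the second took in long H3K79me2 peaks and left out H3K4me3 peaks that touched both sets. The first also asked for mutant H3K4me3 within the H3K79me2 peak, and the second anywhere on the WT H3K4me3 peak. Which of these differences moved the value was not tested.

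The active promoters among the WT-only peaks, with H3K4me3 and H3K27ac and no H3K27me3 in WT, numbered 767 (8.08%). In the mutant 94.7% (92.8 to 96.1) of them had H3K4me3 and 80.7% (77.7 to 83.4) had H3K27ac, against 98.3% and 91.7% over all autosomal WT H3K79me2 peaks of that class. None of the 4 marks was left at 10 of them (1.30%), against 0.353% over all. Bivalent sites, with H3K4me3 and H3K27me3 in WT, numbered 153, and 107 of them (69.9%) had both marks in the mutant, against 72.9% over all. H3K4me3 was listed at 143 of the 153 in the mutant (93.5%, against 97.3% over all) and H3K27me3 at 114 (74.5%, against 74.7%). Sites with H3K4me3 but neither H3K27ac nor H3K27me3 numbered 165, and 135 (81.8%, 75.1 to 87.4) had mutant H3K4me3, against 88.9% over all. Mutant H3K27ac was on 60 of the 153 bivalent sites (39.2%). In WT, 87 of them had H3K27ac without H3K4me1, and 5 had all 4 marks. No share over all was computed for H3K27ac at bivalent sites. H3K4me3 in these classes, and H3K27ac at active promoters, were thus listed in the mutant at most WT-only peaks. Their shares were smaller than over all WT H3K79me2 peaks of the class, while bivalent sites were near their background in H3K27me3. Differences in peak length and fold between the members and all peaks were not matched here.

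Active distal sites, with H3K27ac and H3K4me1 and no H3K4me3 in WT, numbered 229. The mutant had H3K27ac at 83.0% (77.5 to 87.6) and H3K4me1 at 23.1% (17.8 to 29.2) of them, against 86.5% and 39.1% over all autosomal WT H3K79me2 peaks of that class. At 131 (57.2%, against 47.4% over all) only H3K27ac of the marks H3K27ac, H3K4me1 and H3K4me3 was left, and 34 (14.8%, against 10.4%) had none of the 4 marks. WT-only peaks with H3K27ac alone of these 3 marks numbered 276, and 177 of them (64.1%, 58.2 to 69.8) had mutant H3K27ac, near the 66.4% over all. Those with H3K4me1 and neither H3K27ac nor H3K4me3 numbered 300, of which 26 (8.67%, against 12.4% over all) had mutant H3K4me1 and 210 (70%, against 70.1%) had none of the 4 marks in the mutant. H3K4me1 at active distal sites stood apart from its background by more than its interval, and H3K27ac did not. Peak length and fold were not matched in these shares, and the background includes the WT-only peaks themselves. Median distances to mutant H3K79me2 were 2868 bp for active distal sites and 22816 bp for bivalent ones. The median was 3520 bp for WT-only peaks with none of the 4 marks in WT and 3703 bp over all WT-only peaks. Bivalent sites thus lay far from this value, and active distal sites nearer to it.

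Marks that appeared in the mutant alone were few. Among WT-only peaks without the mark in WT, mutant H3K27ac was present at 211 (2.60%), H3K4me3 at 94 (1.12%), H3K27me3 at 52 (0.560%) and H3K4me1 at 34 (0.387%). Over all autosomal WT H3K79me2 peaks these shares were 3.76%, 1.48%, 0.627% and 1.98%. None of the 4 shares stood above its background. WT-only peaks were shorter than the shared peaks in that background, and length was not matched here.

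Peaks far from mutant H3K79me2 differed in their marks and hardly in their size. Median length was 628.5 bp within 1000 bp of mutant H3K79me2, 681 bp from there to 10000 bp, 669 bp to 100000 bp and 679 bp beyond. Median fold stayed between 3.93 and 3.97. WT H3K4me3 was on 7.69%, 8.10%, 17.7% and 25.5% of the WT-only peaks in these 4 classes, which held 1652, 4963, 2253 and 620 peaks. WT H3K27me3 went from 0.605% and 1.23% to 3.64% and 6.61%. The farther peaks were thus more often at promoters, Polycomb-marked ones included.

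H3K27ac in the mutant differed by distance too. Within 1000 bp of mutant H3K79me2, 193 WT-only peaks had WT H3K27ac and 183 had mutant H3K27ac, and from there to 10000 bp the counts were 641 and 649. Between 10000 and 100000 bp they were 410 and 330, and beyond 100000 bp 120 and 89. The mutant count of H3K27ac was thus below the WT count mainly for WT-only peaks more than 10000 bp from mutant H3K79me2.

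Among the 5 WT-only peaks with the highest −log10 q, short bare peaks and marked promoters were mixed. On chromosome 15 from 87394350 to 87394663, a peak of 314 bp (fold 5.05, −log10 q 10.6) had no other mark in either genotype and lay 70880 bp from mutant H3K79me2. On chromosome 8 from 127474058 to 127474367, a peak of 310 bp had the highest fold of all, 6.25, with H3K4me3 over 282 bp in WT and all 310 bp in the mutant. WT H3K27ac covered 24 bp of it and mutant H3K27ac 310 bp, and mutant H3K79me2 lay 1625 bp away. On chromosome 17 from 30306255 to 30306645, a bare peak of 391 bp had a fold of 5.91, 1040 bp from mutant H3K79me2. The peak on chromosome 13 from 29041438 to 29044872 (3435 bp, fold 5.89) lay 900999 bp from mutant H3K79me2, and H3K4me3 covered 3352 bp of it in WT and all of it in the mutant. It also held 1824 bp of WT and 1970 bp of mutant H3K27ac, with 1526 bp of WT and 1586 bp of mutant H3K27me3. The peak on chromosome 4 from 135699745 to 135701111 (1367 bp, fold 6.14) was covered in full by H3K4me3, H3K27ac and H3K27me3 of both genotypes.

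The 5 longest WT-only peaks included bare and marked ones, where 77.7% of all WT-only peaks had no other mark in either genotype. Those on chromosome 9 from 62342101 to 62351639 (9539 bp), chromosome 3 from 28221923 to 28230347 (8425 bp) and chromosome 2 from 4356786 to 4364881 (8096 bp) had no other mark in either genotype, and mutant H3K79me2 lay 1970, 4017 and 3956 bp away. The peak on chromosome 10 from 52424945 to 52434167 (9223 bp) had 223 bp of WT H3K4me3 and no mark in the mutant. That on chromosome 16 from 10437690 to 10446761 (9072 bp, fold 4.80) had 874 bp of H3K4me3 and 410 bp of H3K27ac in WT. In the mutant it had 1246 bp of H3K27ac and no H3K4me3, 23715 bp from mutant H3K79me2.

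Of the 5 WT-only peaks farthest from mutant H3K79me2, 4 lay on chromosome 5. The farthest was on chromosome 14 from 111148097 to 111153695, 5599 bp long with a fold of 4.80, at 4287982 bp from the nearest mutant H3K79me2 peak. It had 2178 bp of WT H3K4me3, 953 bp of mutant H3K4me3 and no other mark. On chromosome 5, the peak from 17082577 to 17083770 was bare, as were 3 peaks in a row, from 12391500 to 12392139, from 12396939 to 12397885 and from 12409055 to 12409443. The 4 on chromosome 5 were 389 to 1194 bp long, with folds of 3.90 to 4.22.

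WT-only peaks that had H3K4me3 in WT and none in the mutant numbered 81. The one with the highest −log10 q was on chromosome 1 from 3660529 to 3660819 (291 bp, fold 5.38), fully within WT H3K4me3, 1113505 bp from mutant H3K79me2 and without any mutant mark. The next 4 all kept mutant H3K27ac. They were on chromosome 18 from 32106843 to 32109360, with 2512 bp of WT and 2518 bp of mutant H3K27ac, and on chromosome 11 from 94817039 to 94818240, with 950 and 967 bp. On chromosome 2 from 125973474 to 125973826 H3K27ac covered all 353 bp in both genotypes, and on chromosome 5 from 145865934 to 145867823 the WT list had 1146 bp of it and the mutant list 1257 bp.

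Of the 52 WT-only peaks with H3K27me3 in the mutant alone, the one with the highest −log10 q was on chromosome 7 from 31838390 to 31839993 (1604 bp, fold 4.68). Mutant H3K27me3 covered 902 bp of it, while H3K4me3 and H3K27ac covered all of it in the mutant and 1604 and 1554 bp in WT. On chromosome 11 from 77301419 to 77303031, H3K27me3 covered 1549 of 1613 bp in the mutant; H3K27ac, over 693 bp in WT, was not listed there, and WT H3K4me3 covered 875 bp and mutant H3K4me3 1373 bp. That peak was the only one of the 5 in which mutant H3K27me3 lay where H3K27ac was in the WT list alone. On chromosome 8 from 127269899 to 127273449 there was 141 bp of mutant H3K27me3 and no other mark. On chromosome 6 from 17257311 to 17257556, 121 bp of mutant H3K27me3 lay beside H3K4me3 and H3K27ac over all 246 bp in both genotypes. On chromosome 11 from 118900064 to 118901087, WT H3K4me1 over 784 bp had no mutant counterpart, and the mutant had 211 bp of H3K27me3 and 113 bp of H3K4me3.

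WT-only peaks were spread over all 19 autosomes. Their share of the short WT H3K79me2 peaks was lowest on chromosome 17, at 35.2% (32.4 to 38.2; 375 of 1064), and highest on chromosome 18, at 45.7% (42.3 to 49.1; 395 of 865). Chromosome 15 came next, at 44.4% (41.6 to 47.2), and the other 16 autosomes lay between 36.7% and 42.3%.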

How the data were processed

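Per the labels' protocols, chromatin was sheared by sonication and libraries had 10 PCR cycles, with fragments of about 200 to 500 bp retained. The submitters' processing notes list mm9 as the build and name Bowtie, MACS, MACS2 and deepTools with no role or version. Peaks were called per library. The authors deposited MACS2 broad peaks for H3K79me2 and H3K27me3, with a fold enrichment (ratio) and a −log10 p and −log10 q per peak, and MACS lists with a score for H3K4me3, H3K27ac and H3K4me1. The 2 input libraries were not used here as lists of their own. Of the 6 modifications in the series text, 5 were analysed.

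Groups follow the sample titles. Peaks overlapped when they shared at least 1 bp, distances are gaps between peak edges, and coordinates are on mm9, counted from 1. Shares carry exact (Clopper-Pearson) 95% intervals, which cover counting error only; neighbouring peaks are not independent. Differences at like length and fold, or at like score, carry approximate intervals. Many of the strongest H3K4me3 and H3K27ac peaks share one score, so like-score groups do not separate them. Read depth is unknown, and a missing peak means only that none passed the authors' threshold. The gene table used here is on another build, so no gene is named.

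Regions were named by rule: the 5 peaks with the highest −log10 q, the 5 longest, the 5 farthest from mutant H3K79me2, the 5 runs with the most members, the 5 with the highest −log10 q among those with H3K4me3 in WT alone and among those with H3K27me3 in the mutant alone, and 3 peaks on each side of the length limit. The members, classes and lists were chosen with earlier results of these data known. The alternatives, given in the closing section, varied the overlap, the length limit, the thresholds, merging, list size and grouping. Overlap and distance code was tested on simulated data. Scripts ran in Python 3.11.15 (numpy 2.4.6, scipy 1.17.1), with figures from matplotlib 3.10.9.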

Additional observations from a re-analysis of the deposited data

Results flagged for a closer look

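Chromosome X lies outside the autosomal rule, and it held H3K79me2 peaks of the same kind. Of 471 WT H3K79me2 peaks under 10000 bp on chromosome X, 213 had no mutant H3K79me2 peak, which is 45.2% (exact 95% interval 40.7 to 49.8), against 39.8% on the autosomes. They are given because they are a signal in data that the descriptions above did not use. The mutant list held 346 H3K79me2 peaks on chromosome X. No difference between chromosome X and the autosomes was tested.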

How the results depend on the processing

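The quantities followed were the share of short WT peaks without a mutant peak, the median length, fold and distance to mutant H3K79me2, the share within 10000 bp of it, the shares with any other mark in WT and in the mutant, the shares of WT H3K27ac and WT H3K4me3 kept, and the H3K27ac difference at like length and fold. That difference stayed negative under every alternative run for it. The stricter threshold (−log10 q of at least 3, score of at least 100) removed no H3K79me2 peak and moved no value beyond its interval. For the difference at like length and fold, the one value it bears on, 10 by 10 groups gave -8.15 points. With mutant cover of at least 50% needed to count as shared, the values in the order above were 56.3%, 863 bp, 4.00, 1603 bp, 78.6%, 24.6%, 22.1%, 78.7%, 94.1% and -11.3 points. With a mutant peak within 1000 bp counted as shared, the share was 32.9%, the distance 5449 bp, the share within 10000 bp 63.3% and the difference -6.41 points. With peaks within 1000 bp merged, the length was 691.5 bp, the distance 4610 bp, the share near 66.1%, those with marks 21.3% and 19.1%, and the difference -10.02 points. With lists of equal size, the first 7 values were 33.1%, 739 bp, 4.09, 3545 bp, 70.7%, 21.4% and 19.2%. A length limit of 5000 bp gave a share of 44.8%. Chosen after seeing the data, a −log10 q of at least 5 in both H3K79me2 lists gave 44.3%, 1246 bp, 4.39, 9635 bp, 50.8%, 33.3%, 30.4%, 79.8%, 94.4% and -14.0 points. The same limit on the WT list alone gave 21.0%, 761 bp, 4.39, 3203 bp, 72.5%, 24.8% and 21.9%, and -13.2 points. Apart from what follows from which peaks each setting leaves in, the cause was not tested. No paired analysis was possible because each genotype had 1 library per mark. Depth is unknown, so no share can be set against it.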

Other observations

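The 3314 mutant-only H3K79me2 peaks under 10000 bp carried other marks about as rarely as the WT-only ones. None of the 4 other marks was present in either genotype at 79.6% (78.2 to 80.9) of them. Mutant H3K4me3 was on 9.60% and mutant H3K27ac on 13.7%. H3K27me3 was on 1.36% in the mutant and 0.935% in WT. Of the 260 mutant-only peaks with WT H3K4me3, 253 had mutant H3K4me3 (97.3%, 94.5 to 98.9), and of the 416 with WT H3K27ac, 347 had mutant H3K27ac (83.4%, 79.5 to 86.9). WT H3K4me1 was found at 185 of them, of which 43 (23.2%, 17.4 to 30.0) had mutant H3K4me1.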
